A study of Mus musculus with 20 samples.

Results

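The genes described here encode the proteins of the cytosolic ribosome, and they were chosen by name: every gene whose symbol is Rpl or Rps followed by a number, with or without a final a, l or x, together with the stalk genes Rplp0, Rplp1 and Rplp2 and with Rpsa. The rule found 81 of the 24062 genes counted in 20 libraries of RNA from mouse nerve tumors. It used no measured value, but the members were chosen with earlier results of these data known. GENCODE annotates 80 of them as protein-coding and 1, Rps4l, as a transcribed processed pseudogene. Of the 81 genes, 79 had enough counts to be tested and 2, Rpl26 and Rpl10l, had 0 counts in all 20 libraries. Reads of ribosomal protein genes can match processed pseudogenes, which are intronless copies inserted elsewhere in the genome, and the handling of such reads is not given in the sources used here. The members' levels therefore carry an uncertainty that the counts cannot resolve.

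The 4 groups were GEM-PNST (4 libraries), paraspinal tumor subgroup 2 (2 libraries), paraspinal tumor subgroup 1 (2 libraries) and neurofibroma (12 libraries). GEM-PNST is the submitters' name for a peripheral nerve sheath tumor of genetically engineered mice. The GEM-PNST and paraspinal tumors came from Ink4a/Arf+/-; Nf1fl/fl; DhhCre mice, which lack 1 working copy of the Ink4a/Arf locus. The neurofibromas came from Nf1fl/fl; DhhCre mice. All mice were C57BL/6J, the labels name no drug, and in all of them Cre driven by Dhh, a gene of the Schwann cell lineage, removed the floxed Nf1 alleles from that lineage while other cells of the tumor kept them. The labels call the paraspinal subgroups sub-clusters, so they may have been drawn from these same expression values. No label states that each library came from its own animal, so the p-values measure the spread between libraries. The identifiers of the 2 paraspinal subgroup 2 libraries differ only in 1 letter. Others share digits: those of neurofibroma libraries 8 and 9 and those of GEM-PNST libraries 1 and 4. So do those of GEM-PNST library 2 and paraspinal subgroup 1 library 1. In the last pair Xist, an RNA of the inactive X chromosome, had 4556 counts in the GEM-PNST library and 4 in the paraspinal one, and the Y-linked Ddx3y had 0 in the GEM-PNST library and 840 in the paraspinal one. All libraries were fitted as independent.

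A ribosome consists of a small subunit, which reads the mRNA, and a large subunit, which joins the amino acids; each is built of ribosomal RNA and many proteins, and cells make these proteins in matched amounts. Many of the mRNAs begin with a C followed by a run of pyrimidines, the terminal oligopyrimidine tract, through which the kinase mTOR and the binding protein LARP1 set how well they are translated. Ribosome production is known to be high in growing cells and to be raised by MYC. When assembly fails, free RPL5 and RPL11 bind the p53 inhibitor MDM2.

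Libraries held 9900759 to 24314222 counts. Levels are given as CPM, counts scaled to a common library size by each library's total and its TMM factor, a correction for differences in composition. A single sequencing run held all GEM-PNST and paraspinal tumors, and neurofibroma libraries 1 to 6 and 7 to 12 were sequenced in separate runs of their own. Against neurofibroma, the effects of run, genotype and tumor type therefore cannot be told apart. The nuclear RNA Malat1 stood at 158 to 1184 CPM in GEM-PNST, 195 to 715 CPM in paraspinal and 25853 to 32480 CPM in neurofibroma libraries. Rn45s, the ribosomal RNA precursor, reached 402636 CPM in GEM-PNST library 4, against 3468 to 16400 CPM in the other 7 libraries of that run. Neurofibroma libraries held 31880 to 190721 CPM of Rn45s. GEM-PNST library 3 held 39713 CPM of 10 salivary gland marker genes, against at most 18.3 CPM in any paraspinal library. For 10 Schwann cell lineage markers the summed level was 3.56, 7.27, 1037 and 28.9 CPM over the GEM-PNST libraries in order, against 4911 to 9452 CPM in paraspinal and 1816 to 5179 CPM in neurofibroma libraries. Schwann lineage markers were thus near 0 in 3 of the 4 GEM-PNST libraries. Targeted genes do not check these labels, because Nf1 RNA of cells outside the Schwann lineage remains and 1 Ink4a/Arf copy is left. Nf1 had 22.4 to 30.4 CPM in GEM-PNST, 36.0 to 90.1 CPM in paraspinal and 217 to 275 CPM in neurofibroma libraries. Cdkn2a, which encodes p16 and ARF, had 0.538 to 9.81 CPM in GEM-PNST, 7.92 to 36.5 CPM in paraspinal and 0.0857 to 1.43 CPM in neurofibroma libraries.

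Start sites of members the results turn on are shown first, because the pyrimidine tract at the start of the mRNA is the feature that the family is known for. RefSeq promoters of GRCm38.p6 were matched by symbol for 60 of the 81 members. Each window runs 5′ to 3′ on the gene's own strand from 40 bases before the annotated start through the first 18 bases of the transcript. Capitals mark the longest stretch of a C and at least 4 further C or T whose first marked C lies within 10 bases of that start. Runs that begin further upstream, as in Rpl7a and Rps27l, are marked only from that limit on. Rpl18, Rps10, Rps26 and Rpl13a were among the members that differed most between groups, Rpl7a and Rpl15 were lower in paraspinal than in neurofibroma libraries, Rplp0, Rpl4 and Rpl41 were among the 5 members with the highest mean CPM over all 20 libraries, and the last 3 are paralogs described separately.
Rpl18 (chr7:45718031-45718088, plus strand): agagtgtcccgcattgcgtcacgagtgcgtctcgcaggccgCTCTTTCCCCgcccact
Rps10 (chr17:27635227-27635284, minus strand): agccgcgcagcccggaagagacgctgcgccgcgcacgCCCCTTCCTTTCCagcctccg
Rps26 (chr10:128626489-128626546, minus strand): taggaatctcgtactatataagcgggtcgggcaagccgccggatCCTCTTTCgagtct
Rpl13a (chr7:45128728-45128785, minus strand): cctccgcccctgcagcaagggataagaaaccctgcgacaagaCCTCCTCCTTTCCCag
Rplp0 (chr5:115559427-115559484, plus strand): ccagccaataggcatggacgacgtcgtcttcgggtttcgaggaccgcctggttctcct
Rpl41 (chr10:128549151-128549208, minus strand): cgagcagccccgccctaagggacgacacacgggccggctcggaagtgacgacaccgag
Rpl4 (chr9:64173347-64173404, plus strand): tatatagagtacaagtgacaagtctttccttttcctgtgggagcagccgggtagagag
Rpl7a (chr2:26910767-26910824, plus strand): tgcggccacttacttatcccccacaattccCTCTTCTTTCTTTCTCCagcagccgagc
Rpl15 (chr14:18270969-18271026, minus strand): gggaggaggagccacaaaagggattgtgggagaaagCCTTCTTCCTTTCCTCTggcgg
Rps27l (chr9:66946046-66946103, plus strand): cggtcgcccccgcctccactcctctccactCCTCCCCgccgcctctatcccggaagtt
Rpl39l (chr16:10170188-10170245, plus strand): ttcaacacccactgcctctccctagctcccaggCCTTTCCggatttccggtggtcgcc
Rpl3l (chr17:24727786-24727843, plus strand): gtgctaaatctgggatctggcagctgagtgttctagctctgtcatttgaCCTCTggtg
A tract as defined stood at the start in 38 of the 60 matched members (63.3%), against 9297 of 27025 genes in the whole table (34.4%). Rplp0, Rpl41 and Rpl4 held none within that distance of the annotated start. The letters ACTTCCG or CGGAAGT, the core bound by ETS factors such as GABP, read on either strand, lay in the 250 bases before the start in 13 of the 60 members (21.7%), against 5.58% of all genes. TATAAA or TATTTA, read on the sense strand, lay there in 5 members (8.33%), against 15.5% of all genes. Members with and without a tract differed little in fold change: in GEM-PNST against paraspinal libraries the median log2 fold change was 1.99 over 37 tested members with a tract and 2.01 over 21 without. These counts describe letters at annotated starts only.

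Over the 81 genes together, ribosomal protein mRNA was highest in GEM-PNST, intermediate in paraspinal subgroup 2 and lowest in paraspinal subgroup 1 and neurofibroma libraries. GEM-PNST libraries 1 to 4 held 190467, 126486, 76551 and 69731 CPM. The sum was 38245 and 39421 CPM in paraspinal subgroup 2 and 18080 and 14961 CPM in paraspinal subgroup 1, and ran from 8532 to 15691 CPM with a median of 11428 CPM in neurofibroma libraries. Every GEM-PNST library lay above every paraspinal library, both subgroup 2 libraries lay above both of subgroup 1, and subgroup 1 library 2 lay inside the neurofibroma range. Before TMM scaling, the 81 genes took 12.8%, 11.2%, 7.89% and 5.32% of all counts in GEM-PNST libraries, 4.25% and 4.42% in subgroup 2, 2.30% and 1.83% in subgroup 1 and 0.832% to 1.50% in neurofibroma libraries. The order of the groups was thus present in the unscaled counts. In bulk RNA, more cells rich in these mRNAs and more of the mRNA in each cell cannot be told apart.

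**Figure D1:**
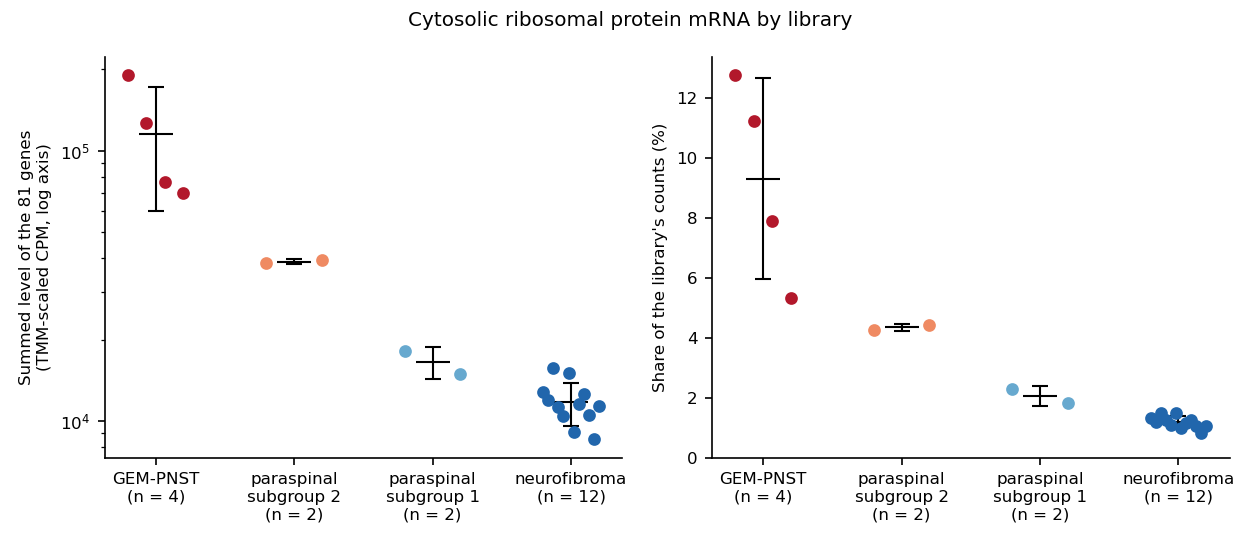
Summed level of the 81 cytosolic ribosomal protein genes in each library, as TMM-scaled CPM on a log axis (left) and as percent of the library's counts (right). Each point is 1 library, horizontal bars are group means and error bars are 1 SD; the 4 GEM-PNST libraries sit between 69731 and 190467 CPM, above all paraspinal libraries.

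The comparison of GEM-PNST with paraspinal tumors lies within 1 sequencing run and 1 genotype. Of the 79 members tested, 42 were higher in GEM-PNST and 0 lower by edgeR's quasi-likelihood test at an adjusted p under 0.05, where 2.73% of all 17258 genes tested were higher, 7.43% lower and 10.2% called in either direction. A member is said to be called when it passes that threshold, and adjusted p-values are Benjamini-Hochberg values over all genes tested. The median log2 fold change of the members was 2.00, a 3.99-fold difference, and the median over all genes was 0.03. In 72 members every GEM-PNST library lay above every paraspinal library, and in 0 every one lay below, against 10.7% and 16.1% of all genes tested. The 30 of these 72 that were not called had adjusted p-values from 0.0504 to 0.0775. The other 7 members, whose groups overlapped, were Rpl3l, Rpl39l, Rps4l and Rps27l, whose symbols mark them as relatives of another member, and the thinly counted Rpl30, Rps27 and Rpl34.

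The number of calls rested on single libraries, for all genes as for the members, while the median difference moved less. Leaving out either subgroup 1 library left 0 members called, leaving out subgroup 2 library 1 or 2 left 3 and 1, and leaving out GEM-PNST library 1, 2 or 4 left 14, 4 and 2. Without GEM-PNST library 3, 53 members were higher and 1 lower. In the same fits, genes called higher over the whole table numbered 21 and 20 without subgroup 1 library 1 and 2, 183 and 41 without subgroup 2 library 1 and 2, and 373, 448, 783 and 98 without GEM-PNST libraries 1 to 4, against 472 with all libraries. Over these 8 fits the median log2 fold change ran from 1.69 to 2.26. Against subgroup 1 alone it was 2.83 with 17 members higher (324 of all genes), and against subgroup 2 alone 1.50 with 0 called (0 of all genes higher and 89 lower). When a trend over transcript length and GC content was removed from each library, the median was 1.37 and 47 members were higher (941 of all genes). Markers of other cells moved with this comparison: all 10 Schwann lineage markers and all 12 sensory neuron markers had negative log2 fold changes, with 2 and 11 called lower, and the summed neuron markers were 32.3 to 481 CPM in GEM-PNST against 2684 to 4248 CPM in paraspinal libraries. All 7 macrophage markers measured had positive ones, with 0 called, and sums of 1408 to 3957 CPM against 249 to 1408 CPM. The T and NK cell marker sum reached 5917 CPM in GEM-PNST library 2 and was 105 to 1136 CPM in the other 3, against 332 to 556 CPM in paraspinal libraries, with 2 of 9 called higher. Of the neuron markers, Scn10a had 0 counts in every GEM-PNST library. The part of these cells in the ribosomal protein result was not tested.

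Rpl18, a large subunit protein, had the largest called difference. Its levels were 3878, 2248, 1025 and 1042 CPM in GEM-PNST, 480.0 and 475 CPM in subgroup 2 and 211 and 159.8 CPM in subgroup 1 libraries, with a log2 fold change of 2.63 ± 0.64 (SE) and adjusted p = 0.0394. GEM-PNST library 1 was the highest and the 3 tumor classes of the run did not overlap. Rps10, a protein of the head of the small subunit, had 3285, 1629.6, 906 and 874 CPM in GEM-PNST against 359 and 443 CPM in subgroup 2 and 167 and 150.1 CPM in subgroup 1 libraries (log2 fold change 2.58 ± 0.62, adjusted p = 0.0382). Rpl32, of the large subunit, differed by 2.55 ± 0.62 on the log2 scale (adjusted p = 0.0391). Extremes fell in the same libraries across most of the family: GEM-PNST library 1 held the highest level of the run in 68 of the 79 members and library 2 in 7, and subgroup 1 library 2 held the lowest level in 74.

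The 72 members other than these 4 relatives and the 3 thinly counted genes, each with at least 199 counts in every library, spanned log2 fold changes of 1.50 (Rpl7) to 2.63 (Rpl18) with an SD over members of 0.27. The members share their libraries, so this SD is not an error of the difference. They are also the same 72 members whose groups did not overlap in this comparison. Rps27l, with 155 to 3842 counts and a log2 fold change of 1.19, is outside the set. The median was 1.90 over 47 large subunit and stalk genes and 2.11 over 32 small subunit genes, with 25 and 17 called higher. The stalk proteins Rplp0, Rplp1 and Rplp2, which bring translation factors to the ribosome, had log2 fold changes of 1.88 ± 0.53, 1.78 ± 0.52 and 2.18 ± 0.62, none past the threshold (adjusted p = 0.0559, 0.06 and 0.057). Rplp0 nonetheless stood at 4988, 3865, 2719 and 2524 CPM in GEM-PNST against 1375 and 1307 CPM in subgroup 2 and 611 and 526 CPM in subgroup 1 libraries, with no overlap.

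**Figure D2:**
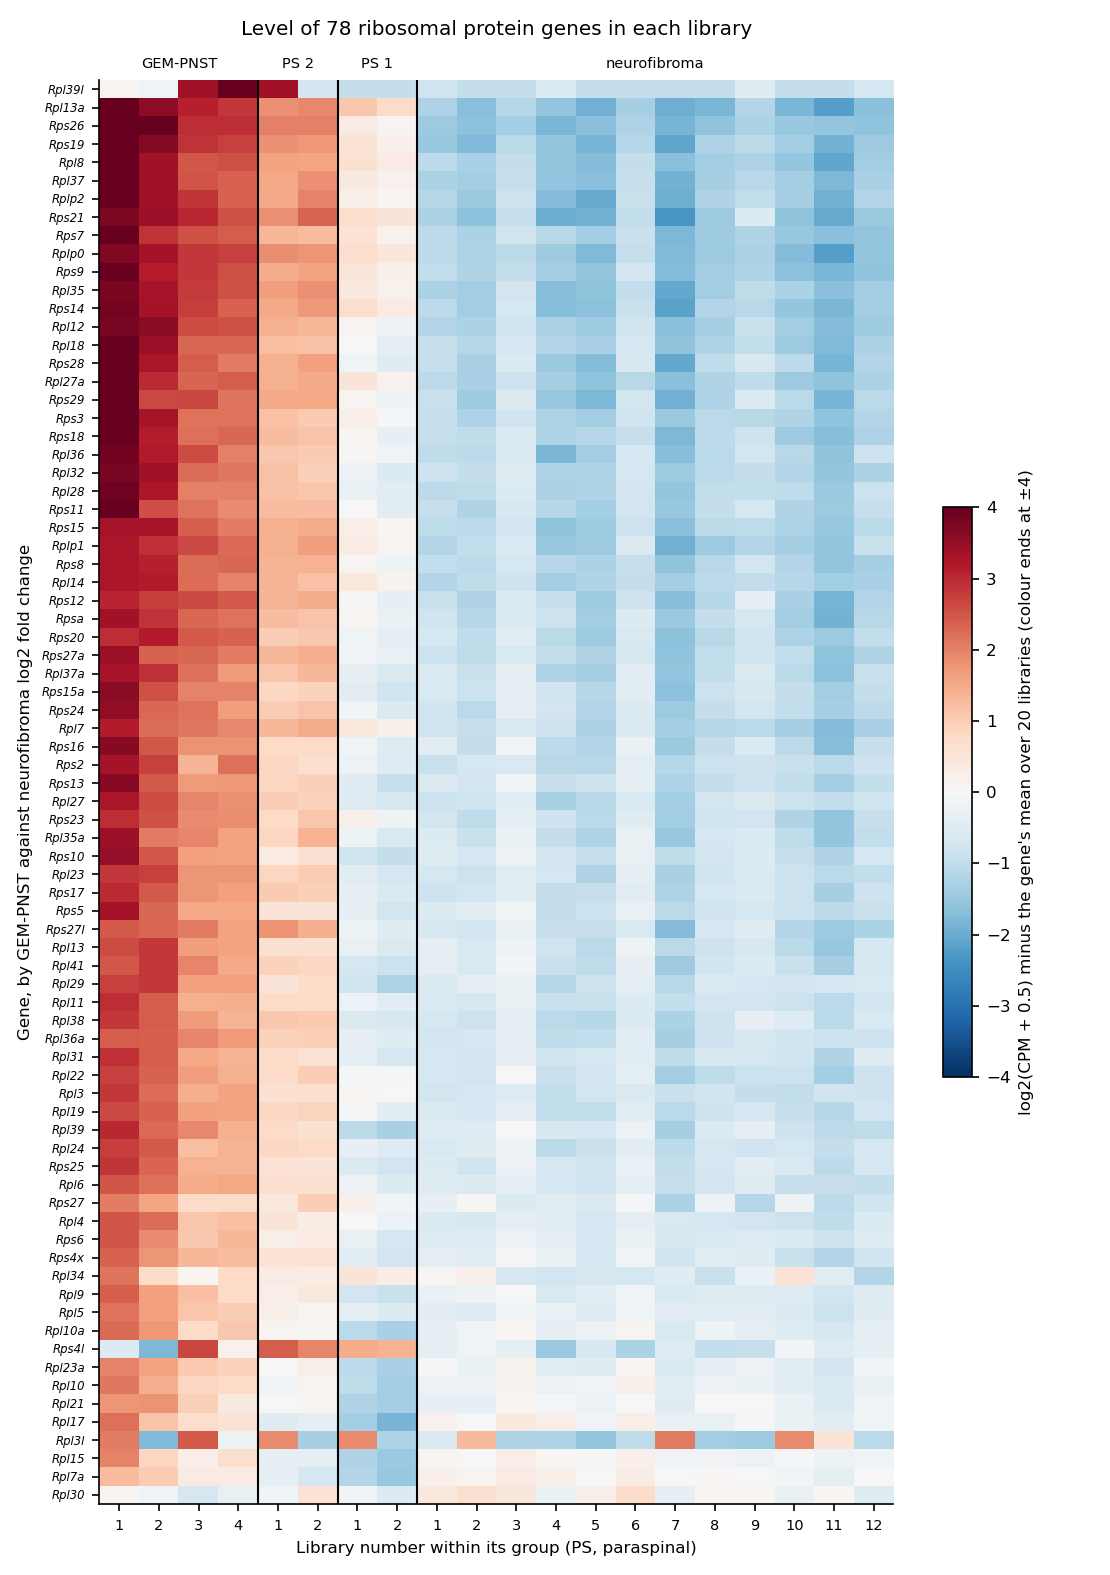
Level of 78 of the 79 tested members (rows) in each of the 20 libraries (columns), as log2(CPM + 0.5) minus the gene's mean over all libraries, ordered by the GEM-PNST against neurofibroma log2 fold change. Most rows run from red in GEM-PNST through pale red in paraspinal subgroup 2 to blue in neurofibroma libraries. Rows with other patterns include Rpl39l, Rps4l, Rpl3l and Rpl30. They also include Rpl7a, Rpl15 and Rpl17, where most paraspinal libraries lay below every neurofibroma library.

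Genes whose protein is tied to disease or to p53 had differences of the family's size. Rps19, the gene most often mutated in human Diamond-Blackfan anaemia, had 3273, 1926, 1111 and 996 CPM in GEM-PNST, 534 and 505 CPM in subgroup 2 and 214 and 174 CPM in subgroup 1 libraries (log2 fold change 2.36 ± 0.60, adjusted p = 0.0428). Rpl5 had 1884, 1305, 903 and 825 CPM in GEM-PNST against 497 and 457 CPM and 318 and 285 CPM in the subgroups in that order (1.66 ± 0.41, adjusted p = 0.0415). Rpl11, its partner in binding 5S RNA and MDM2, differed by 1.89 ± 0.52 and did not pass (adjusted p = 0.0539). Of 12 p53 target genes, none was called in this comparison, and their median log2 fold change was -0.10.

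Between the paraspinal subgroups, no member passed the test and neither did any other gene (0% of 17258 called), although 23 members had an unadjusted p under 0.05 against 2008 of all genes. Log2 fold changes of subgroup 2 against subgroup 1 were positive in 78 of 79 members with a median of 1.24, a 2.37-fold difference, against a median of 0.00 over all genes. In 76 members both subgroup 2 libraries lay above both subgroup 1 libraries, and in 0 both lay below, where 34.0% and 34.1% of all genes did so. The call rates over all genes were 0% in each direction. Fits with more libraries or another model called some of them: 19 members with all 20 libraries in 1 fit, 7 with DESeq2 and 72 with limma-voom, where these fits called 7.08%, 5.92% and 30.8% of all genes in either direction. With the length and GC trend removed the median was 0.52.

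Rps28, a small subunit protein, showed one of the larger subgroup differences, with 286 and 335 CPM in subgroup 2 against 95.1 and 75.8 CPM in subgroup 1 libraries (1.86 ± 0.73, adjusted p = 0.395). Rpl39, which lines the exit tunnel of the large subunit, had 378 and 340.4 CPM against 108 and 90.9 CPM (1.86 ± 0.57, adjusted p = 0.33). Rps26, at the mRNA exit of the small subunit, had 486 and 490.2 CPM against 151 and 130.5 CPM (1.79 ± 0.58, adjusted p = 0.346). At the other end, Rpl4 and Rpl3, large subunit proteins whose extensions reach towards the exit tunnel and the catalytic centre, differed by 0.52 ± 0.62 and 0.58 ± 0.56 on the log2 scale. Rpl4 stood at 901 and 782 CPM in subgroup 2 and 632 and 542 CPM in subgroup 1 libraries, without overlap but with the smallest difference among well-counted members.

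**Figure D3:**
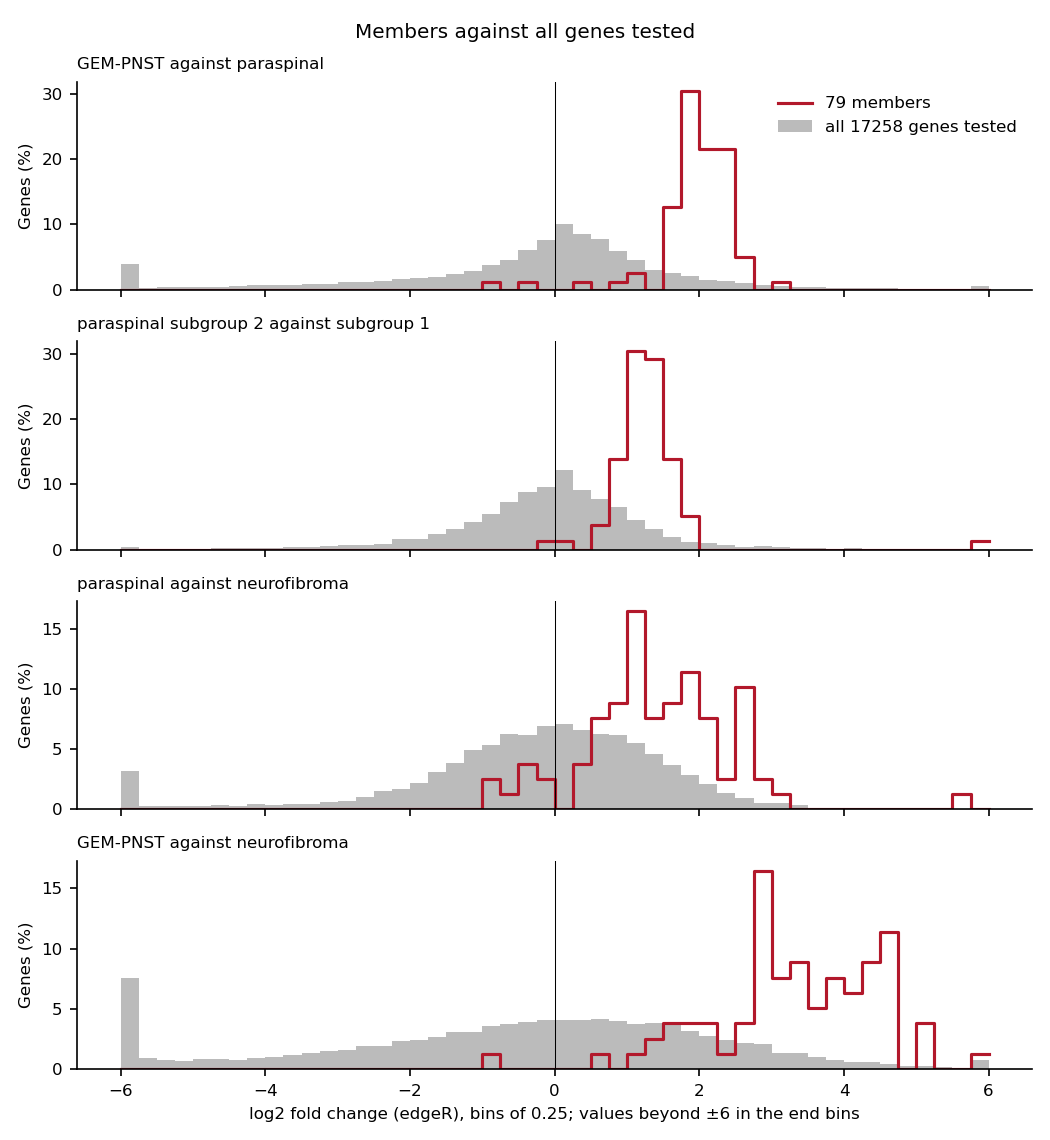
Distribution of log2 fold changes (edgeR, bins of 0.25, percent of genes) for the 79 members (red line) and for all 17258 genes tested (grey bars) in the 4 comparisons. Members lie right of the centre of all genes, in a narrow peak around 2.00 in GEM-PNST against paraspinal and more widely spread in both comparisons with neurofibroma.

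Paraspinal tumors exceeded neurofibromas in most members, with run and genotype changing together with the tumor. Of 79 members, 67 were higher and 3 lower in paraspinal libraries, but 29.6% of all genes tested were also higher and 29.1% lower, together 58.6%. The median log2 fold change was 1.40, against -0.03 over all genes, and 35 members lay above every neurofibroma library in every paraspinal library and 1 below, against 17.8% and 17.6% of all genes. Subgroup 1 alone gave 38 members higher, 7 lower and a median of 0.57, and subgroup 2 alone gave 69, 1 and 1.86, where 3737 and 4994 of all genes were higher and 3832 and 5197 lower. Within neurofibroma, libraries 7 to 12 differed from libraries 1 to 6 by a median log2 fold change of -0.24 over members, with 0 of the 17258 genes called and 20 of 79 members at an unadjusted p under 0.05, as were 2275 of all genes.

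The differences from neurofibroma varied from member to member. Over the same 72 members, none of which had overlapping groups in the within-run comparison, they had an SD of 0.91, against 0.27 there. They ran from -0.94 ± 0.19 for Rpl7a to 3.08 ± 0.21 for Rpl13a. Rpl13a, known in human cells also as part of an interferon-dependent translation silencing complex, had 787 and 829 CPM in subgroup 2, 468 and 370.2 CPM in subgroup 1 and 47.1, 68.5 and 99.5 CPM (lowest, median and highest) in neurofibroma libraries, with no overlap (adjusted p = 2.69e-09). Rps21 and Rps26 of the small subunit were higher by 2.97 ± 0.30 and 2.94 ± 0.25 on the log2 scale, and Rplp0 by 2.73 ± 0.24 (adjusted p = 3.09e-07, 3.53e-08 and 5.03e-08). All 32 small subunit genes were called higher, beside 35 of 47 large subunit and stalk genes.

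The 3 members called lower in paraspinal libraries, Rpl7a, Rpl17 and Rpl15, are large subunit genes. Rpl15 had 187 and 186 CPM in subgroup 2 and 103 and 85.2 CPM in subgroup 1, below every neurofibroma library (200.5, 228 and 278 CPM as lowest, median and highest, -0.74 ± 0.19, adjusted p = 0.00295). Rpl7a had 218 and 171 CPM in subgroup 2 and 123 and 97.1 CPM in subgroup 1 against 216, 286 and 349.7 CPM in neurofibroma libraries, where subgroup 2 library 1 lay just above the lowest neurofibroma value and the other 3 paraspinal libraries below it (-0.94 ± 0.19, adjusted p = 0.000364). Rpl17 differed by -0.88 ± 0.24 (adjusted p = 0.00441). GENCODE names 13 pseudogenes for Rpl7a, 11 for Rpl17 and 5 for Rpl15. Over the 20 tested members with 5 or more named pseudogenes the median log2 fold change was 1.01, over 39 with 1 to 4 it was 1.48 and over 20 with none it was 1.69. In GEM-PNST against paraspinal libraries, which share a run, the same classes had medians of 1.96, 1.97 and 2.03. The pseudogene row Rpl14-ps1 had 196 to 430 CPM in GEM-PNST, 81.7 to 123 CPM in paraspinal and 0.753 to 1.98 CPM in neurofibroma libraries. Whether reads were assigned to copies differently between runs was not tested.

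GEM-PNST differed most from neurofibroma. There 77 of 79 members were higher and 0 lower, beside 34.9% of all genes higher and 37.9% lower, together 72.8%, with a median log2 fold change of 3.39, a 10.4-fold difference, against -0.15 over all genes. This comparison shares its neurofibroma libraries with the previous one. In 73 members all GEM-PNST libraries lay above all neurofibroma libraries, and in 0 all lay below, against 20.5% and 24.6% of all genes. The count stayed between 76 and 77 when any 1 GEM-PNST library, or neurofibroma library 8 or 9, was left out. Rps26 had 2275, 1896, 929.6 and 932 CPM in GEM-PNST against 32.8, 39.2 and 50.3 CPM in neurofibroma libraries (lowest, median and highest), a log2 fold change of 5.20 ± 0.20 (adjusted p = 7.44e-12). Rpl13a, Rps19 and Rpl8 were higher by 5.25 ± 0.26, 5.07 ± 0.26 and 4.71 ± 0.27 (adjusted p = 7.26e-11, 1.02e-10 and 2.88e-10). Rpl7a and Rpl15 were higher by only 0.72 ± 0.17 and 1.11 ± 0.22 (adjusted p = 0.00136 and 0.00021), and with the length and GC trend removed the Rpl7a value was -0.33. The 2 members not called were Rpl30 and Rpl3l.

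**Figure D4:**
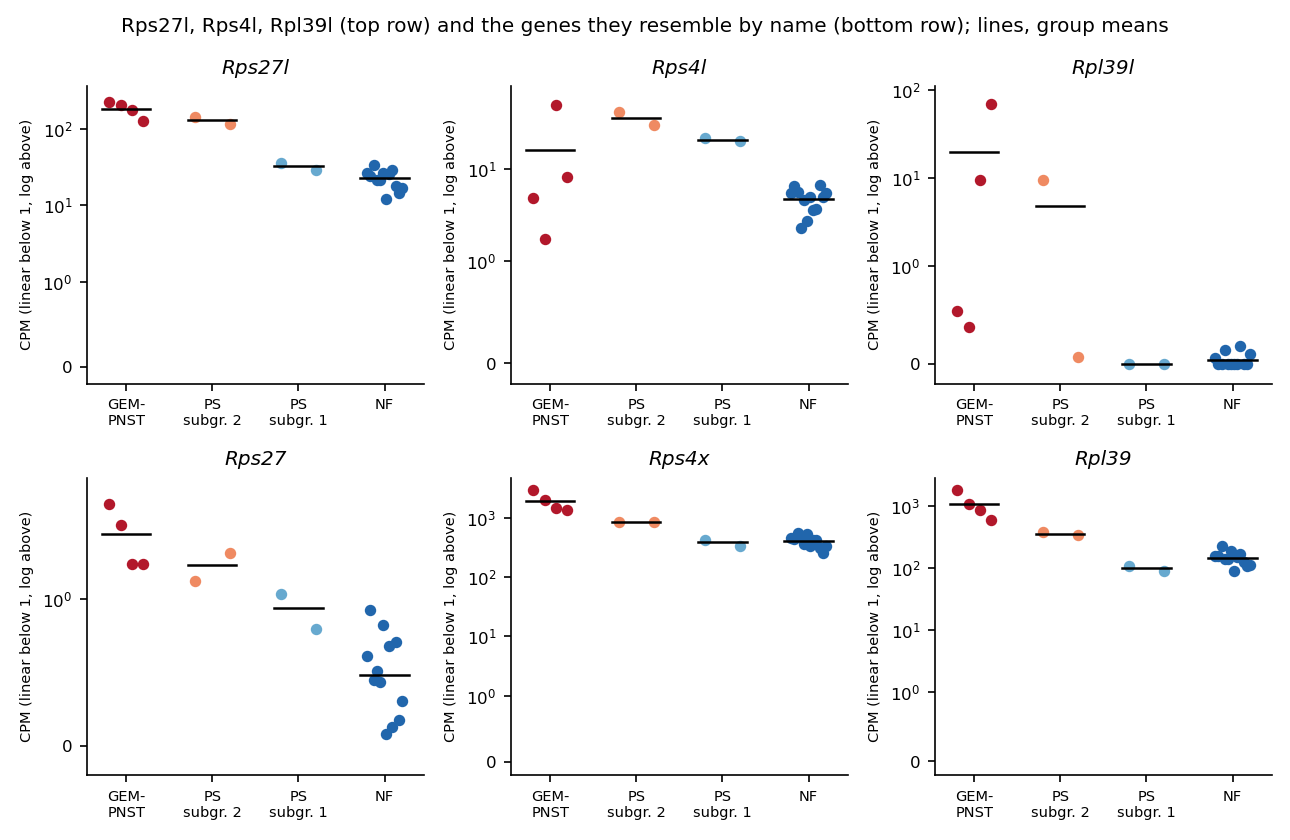
CPM of Rps27l, Rps4l and Rpl39l (top row) and of Rps27, Rps4x and Rpl39 (bottom row) by library, on an axis that is linear below 1 CPM and logarithmic above; points are libraries and lines are group means. Rps27l in paraspinal subgroup 2 lies near its GEM-PNST level, Rps4l is high in paraspinal libraries and GEM-PNST library 3, and Rpl39l is above 9 CPM in 3 libraries.

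Of the 4 members named as relatives of another, Rps27l followed the order of the family's groups, and Rps4l, Rpl39l and Rpl3l did not. Rps27l, a paralog of Rps27 that is a p53 target in human cells, had 229.6, 207, 178 and 129 CPM in GEM-PNST, 146 and 115 CPM in subgroup 2, 35.9 and 29.5 CPM in subgroup 1 and 12.1, 22.95 and 33.6 CPM (lowest, median and highest) in neurofibroma libraries. Subgroup 2 overlapped GEM-PNST and lay above subgroup 1. The log2 fold change was 1.19 ± 0.54 in GEM-PNST against paraspinal (adjusted p = 0.159) and 2.00 ± 0.37 between the subgroups (adjusted p = 0.31), a value above those of all 72 well-counted members. Against neurofibroma it was 3.03 ± 0.21 in GEM-PNST and 1.85 ± 0.32 in paraspinal libraries (adjusted p = 2.44e-09 and 9.24e-05), where the family medians were 3.39 and 1.40. Its partner Rps27 was listed at only 1 to 77 counts in any library, so the pair could not be compared.

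Rps4l, the member annotated as a transcribed processed pseudogene, had 4.84, 1.72, 49.3 and 8.20 CPM in GEM-PNST, 41.1 and 29.6 CPM in subgroup 2 and 21.4 and 19.99 CPM in subgroup 1 libraries, and 2.26, 4.95 and 6.65 CPM in neurofibroma libraries. It was higher in paraspinal than in neurofibroma libraries without overlap (2.58 ± 0.24, adjusted p = 9.84e-08), and 3 of the 4 GEM-PNST libraries lay below every paraspinal library. GEM-PNST library 3, the exception, is also the one with Schwann lineage markers (1037 CPM summed, against at most 28.9 CPM in the other 3). Neurofibroma libraries held 1816 to 5179 CPM of those markers and at most 6.65 CPM of Rps4l. That library also held the 39713 CPM of salivary gland markers, and the part of other cells in its Rps4l level was not tested. Rps4x, the gene it resembles by name, had 2947, 1954, 1450.1 and 1355 CPM in GEM-PNST, 845 and 838 CPM in subgroup 2 and 425 and 338 CPM in subgroup 1 libraries, in the order of the family.

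Rpl39l, a paralog of Rpl39 known from male germ cells, was nearly absent from most libraries and high in 3. Its level was 0.538, 0.377, 9.55 and 68.9 CPM over the GEM-PNST libraries in order (8, 7, 193 and 856 counts), 9.54 and 0.0733 CPM in subgroup 2 (196 and 2 counts), 0 counts in both subgroup 1 libraries and 0 to 3 counts in neurofibroma libraries. Summed CPM of 9 germ cell markers was at most 0.742 in GEM-PNST and 2.08 in paraspinal libraries, so those markers were near 0 where Rpl39l was high. Rpl39l had the highest fitted log2 fold change of any member in GEM-PNST against paraspinal (3.05 ± 2.25) and did not pass (adjusted p = 0.366). The value was 0.54 without GEM-PNST library 4 and 9.26 without subgroup 2 library 1. In paraspinal against neurofibroma it was called (5.58 ± 1.22, adjusted p = 0.000782), but the value was -0.56 without subgroup 2 library 1. Rpl39 itself had 1798, 1072, 847 and 601 CPM in GEM-PNST, in another library order.

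Rpl3l, the striated muscle paralog of Rpl3, had 6.59, 0, 8.91 and 0.965 CPM in GEM-PNST, 5.84 and 0.183 CPM in subgroup 2, 5.77 and 0.221 CPM in subgroup 1 and 0.0728, 0.322 and 6.66 CPM in neurofibroma libraries. The 8 libraries with the most Rpl3l, at 1.97 CPM or more, were the same 8 of 20 with the highest summed level of 10 skeletal muscle markers, at 665 CPM or more. They came from every group. Outside them Rpl3l was at most 0.965 CPM and the muscle sum at most 329 CPM. Rpl10l, another germ cell paralog, had 0 counts in all libraries, whose totals put 3 counts below 1 CPM.

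Levels of different members were compared per kilobase of principal transcript for the 75 members with one in GENCODE. The order differed between groups. Rpl41, among the members with the highest mean CPM, was not in this set. Rps24, with 1243 to 4545 CPM in GEM-PNST libraries, was also missing from it, as were Rpl7, Rpl19, Rps4l and Rpl26. Within the set, Rps29 and Rplp1 were the highest pair in GEM-PNST and both paraspinal subgroups. Rps29, Rplp1 and Rps15 had 6848 ± 4975, 5405 ± 1543 and 3943 ± 1644 CPM per kb in GEM-PNST (SD, n = 4), 2225 ± 54.0, 2251 ± 264 and 1476 ± 53.6 in subgroup 2, 757 ± 115, 902 ± 96.0 and 609 ± 64.3 in subgroup 1 (n = 2 each) and 347 ± 114, 342 ± 97.8 and 240 ± 47.9 in neurofibroma libraries (n = 12). Rps29 and Rplp1 differed by less than the larger of their SDs in GEM-PNST, subgroup 2 and neurofibroma libraries and by more in subgroup 1. In neurofibroma libraries Rpl10 was highest, with 771 ± 128 CPM per kb. At the low end, Rps27, Rpl34 and Rpl30 had at most 77, 81 and 32 counts in any library, although each encodes a core ribosomal protein, and Rpl26 had none. Whether these low counts reflect low expression or the counting of reads was not tested. By CPM without regard to length, Rplp0 was highest in GEM-PNST and paraspinal subgroup 2. In subgroup 1 Rpl4 (632 and 542 CPM) was highest, close to Rplp0 (611 and 526 CPM). In neurofibroma libraries Rpl10 (616 ± 102 CPM) and Rpl4 (411 ± 53.2 CPM) were highest (SD, n = 12 each). There Rpl4, at 310 to 491 CPM, overlapped Rps4x, at 257 to 556 CPM.

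Within the family, shares shifted between neurofibroma and the other groups more than between GEM-PNST and paraspinal tumors. Rplp0 made up 3.21% ± 0.47 of the summed members in GEM-PNST (SD, n = 4), 3.45% ± 0.20 in subgroup 2, 3.45% ± 0.10 in subgroup 1 (n = 2 each) and 1.22% ± 0.14 in neurofibroma libraries (n = 12). Rps9 made up 2.55% ± 0.30, 2.36% ± 0.11, 2.42% ± 0.01 and 1.06% ± 0.10 in the same order of groups. Rpl10, with 6 named pseudogenes, made up 1.63% ± 0.08 of the family in GEM-PNST, 1.85% ± 0.15 in subgroup 2, 1.89% ± 0.07 in subgroup 1 and 5.29% ± 0.45 in neurofibroma libraries. Its level was 3075, 1935, 1261 and 1205 CPM in GEM-PNST, 667 and 771 CPM in subgroup 2, 350.5 and 274 CPM in subgroup 1 and 475, 603 and 829.9 CPM in neurofibroma libraries, so that both subgroup 1 libraries lay below the neurofibroma range.

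Lists of other translation genes had smaller median differences than the family in GEM-PNST against paraspinal libraries, where 2.73% of all genes were called higher and 7.43% lower. The 7 ribosomal proteins that the name rule misses had a median log2 fold change of 1.87 with 3 higher, among them Gnb2l1, the scaffold protein RACK1, at 2.39 ± 0.55 (adjusted p = 0.0342). Of 18 other mRNAs known in human cells to carry a pyrimidine tract, 5 were higher and 1 lower with a median of 1.30. Npm1, a nucleolar chaperone of ribosome assembly, was higher by 1.92 ± 0.39 (adjusted p = 0.0234). Eef1a2, the elongation factor of neurons and muscle, was the one lower, with a log2 fold change of -5.28 ± 1.28 (adjusted p = 0.0392), beside the lower neuron markers described above. Of 34 initiation factors 7 were higher and 0 lower (median 0.73), with the eIF3 subunits Eif3h, Eif3f and Eif3e at 1.83 ± 0.41, 2.04 ± 0.50 and 1.63 ± 0.41 (adjusted p = 0.031, 0.0397 and 0.0421).

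Of 12 elongation and release factors 1 (Eef1b2) was higher and 2 (Eef1a2 and Eif5a2) were lower (median 0.88), and of 24 ribosome assembly factors 3 were higher (Npm1, Wdr43 and Nop2, median 0.89). The 77 mitochondrial ribosomal proteins, which build the separate ribosome of mitochondria, had positive log2 fold changes throughout, with a median of 0.76 and 1 called, Mrps35 (1.32 ± 0.34, adjusted p = 0.0439). Of 15 regulators of the translation of pyrimidine-tract mRNAs, 2 were higher and the median was 0.00. These were Myc, with a mean of 73.4 ± 34.7 CPM in GEM-PNST and 19.0 ± 7.17 CPM in paraspinal libraries (SD, n = 4 each, 1.95 ± 0.47, adjusted p = 0.0385), and Eif4ebp1, an inhibitor of cap-dependent initiation that mTOR switches off, with 314 ± 363 CPM and 27.2 ± 18.4 CPM (3.53 ± 0.88, adjusted p = 0.0416). As for the family, these calls rested on single libraries: without either subgroup 1 library 0 genes of these lists were called, and without GEM-PNST library 2 or 4 or either subgroup 2 library at most 2 of any list. Without GEM-PNST library 3, up to 12 of a list (initiation factors) were called, and without library 1 at most 5. Between the paraspinal subgroups, where 0 of 17258 genes were called, the lists held no call either.

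**Figure D5:**
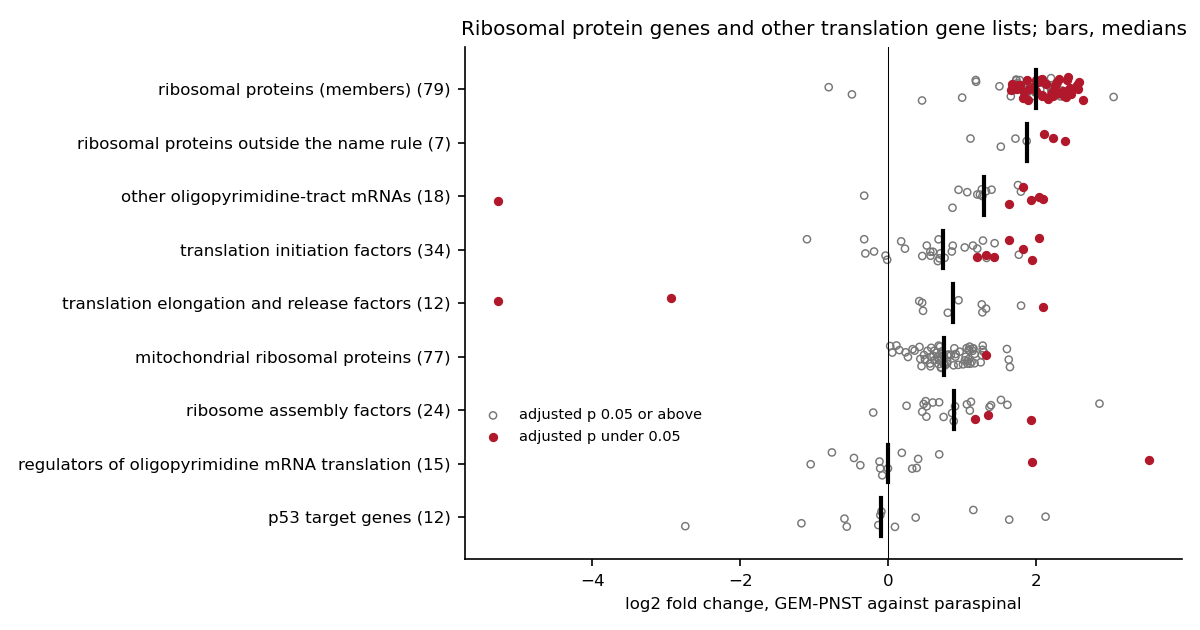
Log2 fold change of GEM-PNST against paraspinal for each gene of the family and of 8 lists of related genes, with the number tested in brackets; filled points have an adjusted p under 0.05 and black bars are medians. The family and the 7 ribosomal proteins outside the name rule have medians of 2.00 and 1.87, and the other lists lie between -0.10 and 1.30.

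Against neurofibroma, 29.6% of all genes were higher and 29.1% lower in paraspinal and 34.9% and 37.9% in GEM-PNST libraries. Beside these shares the lists gave, for paraspinal libraries, 6 of 7 other ribosomal proteins higher, 10 of 18 pyrimidine-tract mRNAs higher and 3 lower, 19 of 34 initiation factors higher and 6 lower, 7 of 12 elongation factors higher and 1 lower, 60 of 77 mitochondrial ribosomal proteins higher and 4 lower, and 12 of 24 assembly factors higher and 1 lower. For GEM-PNST the numbers were 7 and 0, 14 and 2, 26 and 5, 8 and 2, 71 and 2, and 21 and 1 in the same order of lists. Of the 15 regulators, 6 were higher and 4 lower in paraspinal and 6 and 5 in GEM-PNST libraries, and of the 12 p53 targets 4 and 4, and 4 and 6, both near the shares of all genes. Mitochondrial ribosomal proteins had median log2 fold changes of 1.87 in GEM-PNST and 1.03 in paraspinal libraries, each against neurofibroma, where the cytosolic family had 3.39 and 1.40.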

How the data were processed

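Total RNA of 20 mouse tumors was sequenced, and the table deposited by the authors holds raw counts of reads per gene, all whole and none below 0, with no row that names no gene. Per the submitters' processing notes HISAT2, TopHat and featureCounts were used with build mm10; versions, the role of each aligner, the annotation, the strand setting and the treatment of reads with several matches are not given in the sources used here. Reads of a member and of a pseudogene or an overlapping gene, such as the small nucleolar RNA genes inside several members, may therefore have been split or merged.

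Libraries were grouped by their titles. Counts were scaled by TMM and filtered with filterByExpr (17258 of 24062 genes kept). They were compared by the quasi-likelihood test of edgeR 4.0.16 (R 4.3.3), with Benjamini-Hochberg adjustment over all genes tested and no covariate. Each fit held only the libraries compared, except between the paraspinal subgroups. That fit also held the 4 GEM-PNST libraries as a separate group. Errors of log2 fold changes are standard errors. The fits were run on simulated counts that had the same spread for all genes and libraries, for the subgroups without the GEM-PNST libraries. Their behaviour at the spread between the real libraries was not tested. Alternatives were DESeq2 1.42.0, limma 3.58.1 (voom with a quality weight for each library), and RLE and upper-quartile factors. Scaling was also done without the members or without Rn45s and Malat1. The planned removal of mitochondrially encoded genes found none named as such in the table. Further settings were no filter, a stricter one (1 CPM in 4 libraries), and all 20 libraries in 1 fit. A trend over length and GC content (mgcv 1.9.3) was also removed, and counts of named pseudogenes were added to their member. Others were a replicate block, single libraries left out, and each subgroup or neurofibroma run alone. Among 74 pairs of libraries within groups none agreed within sampling noise (lowest chi-square per degree of freedom 22.6).

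The members and lists were chosen with earlier results of these data known. Named members are the 5 highest and 5 lowest log2 fold changes of each comparison, the 5 highest and 3 lowest mean CPM, the paralogs with their partners, the stalk genes, Rpl5, Rpl11 and Rps19, and at most 4 genes of each list by smallest p. Rpl7, Rpl19, Rps9, Rps15, Rps24 and Rps29 were named after their values were seen. Promoter sequences are from RefSeq (GRCm38.p6). Some genes that the naming rule selects are not reported here.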

Additional observations from a re-analysis of the deposited data

Results flagged for a closer look

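Of 68 groups of 4 libraries examined for a library far from the others, 3 held one; chance gives about 1 in 20. Rpl39l in GEM-PNST library 4 had 68.9 CPM, where the other GEM-PNST libraries had 0.377, 0.538 and 9.55 CPM. Rpl39l in paraspinal subgroup 2 library 1 had 9.54 CPM, where the other paraspinal libraries had 0, 0 and 0.0733 CPM. Rps4l in GEM-PNST library 3 had 49.3 CPM, where the other GEM-PNST libraries had 1.72, 4.84 and 8.20 CPM.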

How the results depend on the processing

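In GEM-PNST against paraspinal libraries, 42 members were called; leaving out 1 library gave 0 to 54, no filter 16, all 20 libraries 73, DESeq2 72, subgroup 1 alone 17 and subgroup 2 alone 0. Over all genes 10.2% were called, and these fits called 2.99% to 14.2%, 6.61%, 39.4%, 29.03%, 6.60% and 0.516% in the same order. The median log2 fold change was 2.83 against subgroup 1 alone. Rpl30 was 0.12 against subgroup 1 alone and -0.77 to 0.024 with 1 library left out, and Rpl3l was -0.19 after removal of the length and GC trend and -0.25 to 1.00 with 1 library left out. Between the subgroups, all 20 libraries gave 19 members, DESeq2 7 and limma-voom 72, against 0, where 7.08%, 5.92% and 30.8% of all genes were called. The median with the trend removed was 0.52, where Rpl3l was -0.67, Rpl4 -0.068, Rps27 -0.056 and Rps4l -0.11. Rpl3l was also -0.0850 with RLE factors, -0.082 with DESeq2, -0.23 with limma-voom and -3.99 to 3.73 with 1 library left out, and Rpl34 was -0.28 to 0.055 with 1 left out. In paraspinal against neurofibroma libraries, subgroup 1 alone gave 45 members (43.9% of all genes) and a median of 0.57, with Rpl39 at -0.56, Rpl39l at -2.60, Rpl5 at -0.055 and Rps4x at -0.093. Subgroup 2 alone gave Rpl10 0.22, Rpl21 0.19 and Rpl30 0.14, and neurofibroma libraries 7 to 12 alone gave Rpl30 0.23. Removing the trend gave Rpl10 0.13, Rpl30 0.67 and Rpl3l -0.25, and leaving out 1 library gave Rpl39l -0.56 to 6.10. In GEM-PNST against neurofibroma libraries, removing the trend gave a median of 2.53, with Rpl3l at -0.44, Rpl7a at -0.33 and Rps4l at -0.20. RLE factors moved the median of all genes to -0.20 from -0.03 in paraspinal and to -0.31 from -0.15 in GEM-PNST, each against neurofibroma, upper-quartile factors to -0.27 in GEM-PNST against neurofibroma, and RLE factors to -0.10 from 0 between the subgroups. The cause of these shifts was not tested.

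Libraries with the same replicate number did not deviate together from their group means (correlations -0.24 to 0.17). Such correlations between different tumor groups cannot show whether the numbers pair samples, and in a subgroup of 2 libraries the deviations mirror each other. With the replicate number as a block, 2 members were called in GEM-PNST against paraspinal libraries, 1 higher and 1 lower. In paraspinal against neurofibroma libraries 10 were called, all higher. These shares of the members lay below the 5.50% and 16.3% of all genes called in those fits. With the block, Rpl3l was -0.81 in GEM-PNST against paraspinal, -0.13 between the subgroups and -1.87 in paraspinal against neurofibroma libraries.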
